A study of Rattus norvegicus with 2 samples.

Results

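*Mfge8* and the genes through which cells recognise and swallow dead neighbours were examined in the lens epithelial cells (LECs) of the Shumiya cataract rat (SCR). The genes were listed by role and selected on their log2 difference between these arrays, since earlier results were known, and a gene was counted as measured when a probe set of the array named it alone in the platform annotation. This gave 9 of 10 listed genes, out of 18166 genes with a value. The tenth, *Cd36*, a scavenger receptor that also takes up fatty acids, is named only on a probe set shared with another gene, so no level is given for it. LECs came from 5-week-old rats on the GeneChip Rat Gene 2.0 ST array. Controls (Cat-) carried *Lss*s/*Lss*s and are labelled as non-cataractous, without the *Lss* mutation. Cataractous rats (Cat+) carried *Lss*s/*Lss*l. Both groups belong to the same SCR strain, *Lss*s is itself described as a polymorphic allele, and the genotype was read by PCR of tail DNA. The paper ties cataract in this strain to mutant alleles of *Lss* and *Fdft1* together, and gives no *Fdft1* genotype for either group. At this age it describes the Cat+ lens as mildly opaque, in posterior and cortical parts, and the Cat- lens as clear. For each group, RNA from 2 eyes was hybridised to 1 array. Without replicates, the spread between animals is unknown and nothing was tested. Lens capsules were removed with the cells on them, so each value is an average over the tissue taken, and fewer cells of a type cannot be told apart from less RNA per cell.

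A dying cell exposes phosphatidylserine on its outer membrane. Secreted bridging proteins bind this lipid and link the dead cell to receptors on the cell that will engulf it. Mfge8 links it to integrins that contain the alpha V chain, whereas Gas6 and protein S (Pros1) link it to Tyro3, Axl and Mertk, the 3 TAM receptor tyrosine kinases. Inside the cell, Elmo1 and Dock1 form an exchange factor that activates Rac and remodels actin, and Gulp1 is an adaptor of engulfment receptors. In the eye, the pathway is best known for the retinal pigment epithelium, which engulfs the membrane that photoreceptors shed, with the help of Mertk and Mfge8. LECs in culture also engulf dead cells, and Gas6 acts on them through Axl as a survival and growth factor.

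The 3 bridging proteins include the member with the lowest ratio and one on the higher side, so the DNA before their start sites is shown, 250 bases each, 5′ to 3′ on the strand of the gene, from RefSeq on GRCr8. Capitals mark the GC box, GGGCGG or its reverse complement CCGCCC, a motif bound by Sp1-type factors.
Mfge8, chr1:142489432-142489681, minus strand: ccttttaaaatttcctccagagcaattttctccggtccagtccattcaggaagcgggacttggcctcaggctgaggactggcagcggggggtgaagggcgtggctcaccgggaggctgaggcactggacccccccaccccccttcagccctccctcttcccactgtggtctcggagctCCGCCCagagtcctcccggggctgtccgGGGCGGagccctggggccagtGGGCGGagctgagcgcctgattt
Gas6, chr16:82747426-82747675, plus strand: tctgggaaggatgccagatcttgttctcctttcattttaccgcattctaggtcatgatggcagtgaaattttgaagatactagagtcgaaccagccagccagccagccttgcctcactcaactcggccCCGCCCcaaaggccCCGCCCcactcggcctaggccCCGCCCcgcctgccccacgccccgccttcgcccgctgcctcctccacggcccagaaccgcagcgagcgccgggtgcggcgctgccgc
Pros1, chr11:13677049-13677298, plus strand: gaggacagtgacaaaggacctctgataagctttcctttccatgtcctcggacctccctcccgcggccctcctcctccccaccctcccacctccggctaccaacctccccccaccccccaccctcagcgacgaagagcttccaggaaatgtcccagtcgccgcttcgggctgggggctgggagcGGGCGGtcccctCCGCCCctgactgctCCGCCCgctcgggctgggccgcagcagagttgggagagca
Each of these windows holds 3 GC boxes, on either strand. In *Mfge8* they begin 72, 44 and 23 bases before the start, in *Gas6* 122, 108 and 87, and in *Pros1* 67, 55 and 40. All 10 listed genes matched a promoter of the RefSeq table, and 8 of them hold a GC box, against 30.5% of all 33469 promoters of that length. The windows of the 9 listed genes other than *Cd36* are also richer in G and C, at 60.4% to 82% against a median of 51.2% over all promoters, and a motif of only these letters was not compared at equal composition. The windows of *Gulp1* and *Cd36* hold none. The core of the heat shock element, GAANNTTC, which reads the same on both strands, is in none of the 10 windows and in 7.23% of all promoters. The Maf half-site TGCTGA, or TCAGCA on the other strand, occurs once, before *Tyro3*, and in 15.1% of all promoters. A match is a description of these letters and not of a bound factor.

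The members are described by their log2 signal in both samples, the log2 difference Cat+ minus Cat-, and the ratio Cat+ over Cat-. The size rule is the one the study used for selection, a ratio under 0.5 or over 2. As the only measure of spread at hand, the differences of several probe sets of one gene had an SD of 0.17 on the log2 scale (291 genes), a factor of 1.13, which covers probe sets and not animals. Each measured member has 1 probe set. Since the members were chosen with these differences known, the counts are a description and not evidence about the pathway. Signals of different genes come from different probes and are not set against each other.

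*Mfge8*, which encodes milk fat globule-EGF factor 8, the bridge to integrins, measured 9.35 in Cat- and 8.35 in Cat+ on the log2 scale. The difference of -1.002 is a ratio of 0.499, the lowest of the 9 measured members and the only one under 0.5. Over all genes, 0.308% had a ratio under 0.5, and among 692 genes whose Cat- signal lay within 0.5 log2 units of that of *Mfge8* the share was 1.01%, that is 7 genes. *Mfge8* was the last gene inside the size rule, at place 56 from the lowest of 18166. Just inside it lay *Dner*, a Notch-related membrane protein, at 0.489, and just outside *Pnkd* at 0.503 and *Prkca*, a protein kinase C, at 0.505. Under quantile normalization *Mfge8* passed to the other side of the rule, with a difference of -0.98. Its place inside the rule therefore depends on the scaling, while the difference itself ran from -1.01 to -0.98 over all settings tried.

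*Gas6*, the vitamin K-dependent ligand of the TAM receptors, measured 9.14 in Cat- and 8.74 in Cat+ on the log2 scale. The difference of -0.40, a ratio of 0.758, exceeded the spread between probe sets, and 2.91% of all genes had a lower one. *Pros1*, protein S, the other TAM ligand and an anticoagulant of plasma, had 7.46 and 7.62, a difference of 0.15 and a ratio of 1.11. This lay within the probe-set SD. Of the bridging proteins, *Mfge8* and *Gas6* were thus lower in Cat+, and *Pros1* was within that spread. With *Mfge8* and *Gas6*, 2 of 9 members had a ratio under 0.8, where 5.39% of all genes did, and 0 of 9 passed the inverse of that ratio, which 3.36% of all genes passed. None had a ratio over 2, which 0.0055% of all genes, that is 1 gene, reached.

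**Figure D1:**
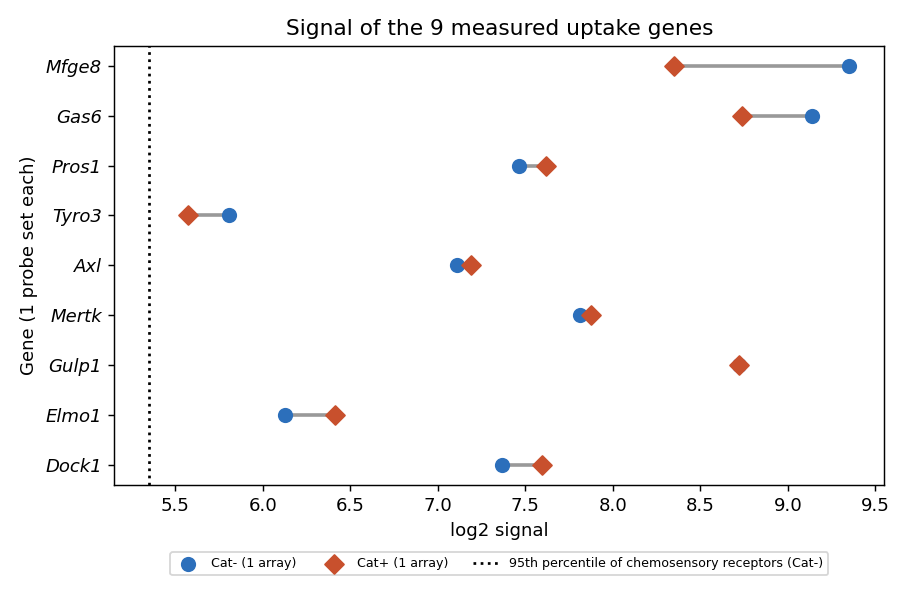
Log2 signal of each measured member in the Cat- array (circles) and the Cat+ array (diamonds), 1 probe set a gene. The dotted line is the 95th percentile in Cat- of probe sets with chemosensory receptor symbols. *Mfge8* spans 9.35 to 8.35, and *Tyro3* lies closest to the dotted line; levels of different genes are not comparable.

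*Tyro3*, the TAM receptor best known from the nervous system, measured 5.81 in Cat- and 5.57 in Cat+ on the log2 scale, a difference of -0.24 and a ratio of 0.849. The array has no detection calls, so 232 probe sets served as a gauge of dim signal. They were picked by the symbols of olfactory and vomeronasal receptors, which a lens is not known to use. This rule also took in *Olr1*, counted below among the other receptors and bridging proteins. The 95th percentile of the 232 probe sets was 5.35 in both samples, and all 9 members lay above it in both. *Tyro3* was closest to that level, 0.46 above it in Cat- and 0.22 in Cat+ on the log2 scale.

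*Axl*, the receptor through which Gas6 acts on LECs, measured 7.11 in Cat- and 7.19 in Cat+ on the log2 scale, a difference of 0.08 and a ratio of 1.06. *Mertk*, the receptor of photoreceptor membrane uptake, had 7.81 and 7.88, a difference of 0.06 and a ratio of 1.05. Both differences lay within the probe-set SD. While the ligand *Gas6* was lower in Cat+, neither of these receptors was, and *Tyro3* alone among the 3 receptors had a lower signal.

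*Elmo1*, the scaffold that holds Dock1 active, measured 6.13 in Cat- and 6.41 in Cat+ on the log2 scale, a difference of 0.28 and a ratio of 1.22, the highest of the members. *Dock1*, its partner that loads Rac with GTP, had 7.37 and 7.60, a difference of 0.23 and a ratio of 1.17. Of all genes, 4.91% had a higher difference than *Elmo1* and 8.58% a higher one than *Dock1*. *Gulp1*, the adaptor, had 8.72 in both samples, a ratio of 1.001. Both partners of the Elmo1 and Dock1 pair were thus higher in Cat+ by more than the spread between probe sets, whereas *Gulp1* stayed level.

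Over the 9 members, 3 were lower in Cat+ and 6 higher, where 51.2% of all genes were lower and 48.8% higher. By more than the spread between probe sets, 3 were lower, against 17% of all genes, and 2 were higher, against 14.6%. The median difference of the members was 0.06, that of all genes -0.0049. The set therefore did not move one way, and its low end was made by *Mfge8* and *Gas6*.

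**Figure D2:**
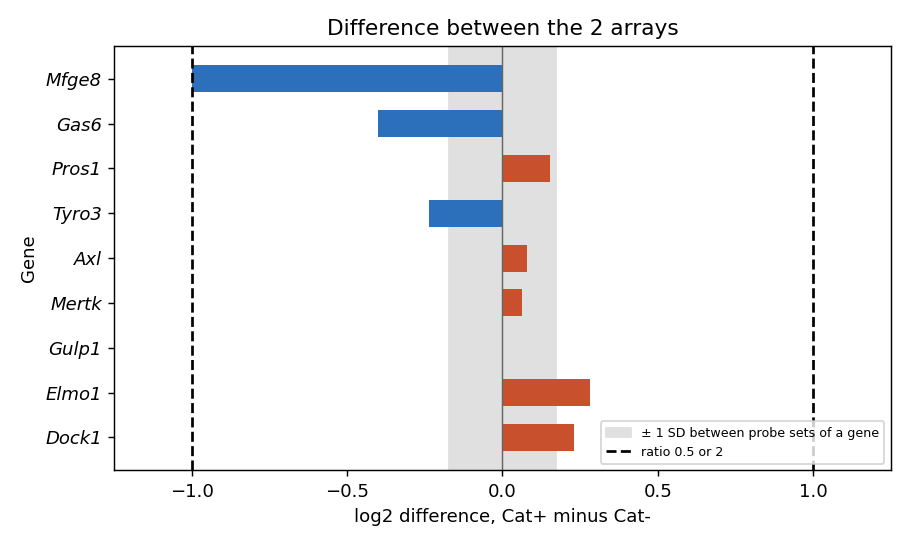
Log2 difference Cat+ minus Cat- of each measured member, with the SD of 0.17 between probe sets of a gene in grey and the ratios 0.5 and 2 as dashed lines. The bar of *Mfge8* ends at the dashed line with -1.002, and the bars of *Axl*, *Mertk*, *Pros1* and *Gulp1* lie within the grey band.

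**Figure D3:**
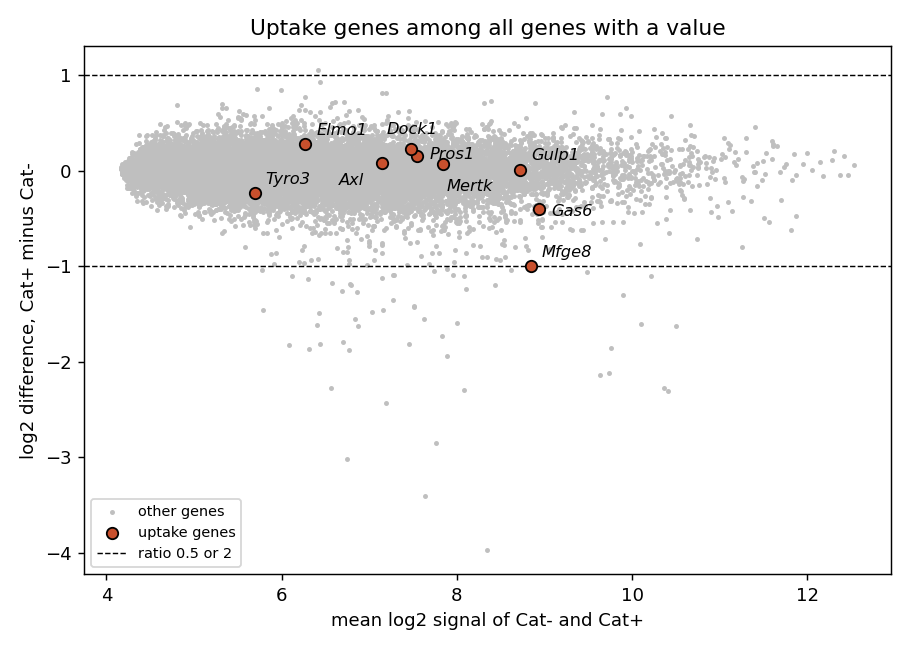
Log2 difference Cat+ minus Cat- against the mean log2 signal of both arrays for 18166 genes, with the 9 members in orange. *Mfge8* lies on the dashed line for a ratio of 0.5 and *Gas6* at -0.40, while the other members lie between -0.24 and 0.28.

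The partners of these genes were read from 5 lists drawn up by role, 82 genes of which 68 were measured. Of these, 30 were lower and 38 higher, against 51.2% and 48.8% of all genes, and the median ratio was 1.01. None had a ratio under 0.5 or over 2, where 0.308% and 0.0055% of all genes did, so few or none were to be found in a list of this size. Among 21 other receptors and bridging proteins, 8 were lower and 13 higher. Of the 13, *Timd4*, *Havcr1*, *Olr1* and *Cd300lf* lay below the chemosensory gauge in one or both samples, and above it in both there were 8 lower and 9 higher. *Lgals3*, galectin-3, a secreted lectin that can act as a ligand of Mertk, measured 8.79 in Cat- and 7.89 in Cat+ on the log2 scale, a ratio of 0.534, the lowest of the 68. *Marco*, a scavenger receptor of macrophages, was at 0.781, and *Msr1*, another one, at 1.30. *Tulp1*, a photoreceptor protein that can bridge to Mertk, was at 1.40. The integrin chain *Itgb5*, which pairs with alpha V to bind Mfge8, had log2 signals of 7.96 and 7.76, a ratio of 0.875, while *Itgav* and *Itgb3* are not named in the annotation used here and were not analysed. *Edil3*, a relative of *Mfge8* that binds the same integrins and lipid, had 8.55 and 8.53, a ratio of 0.986. The lower signal of *Mfge8* was thus not accompanied by one in *Edil3*.

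Among 9 measured genes of phosphatidylserine exposure and of the signal that restrains uptake, 2 were lower and 7 higher, with a median ratio of 1.11. Of these, 2 lay below the chemosensory gauge in 1 sample, and the median is the ratio of such a gene. Above the gauge in both samples, 1 was lower and 6 higher. Genes with opposing roles in exposure and uptake are pooled here, so the counts and the median are not a measure of exposure. *Xkr8*, the scramblase that caspases switch on, was at 1.16 and *Plscr3* at 1.17. *Plscr1* had a log2 signal of 5.44 in the control and lay below the chemosensory gauge in Cat+, so no ratio is given for it. *Sirpa*, the receptor of the restraining signal, was at 1.14. Of 16 genes of the engulfment machinery, 8 were lower and 8 higher. *Rac2*, the Rac protein of blood cells, was at 1.36, and *Rhog*, a GTPase that recruits Elmo proteins to the membrane, at 0.791. The adaptor *Crkl* was at 0.858 and the kinase *Src* at 0.867, whereas *Rac1*, the Rac protein of most tissues, had log2 signals of 10.67 and 10.68. *Elmo2*, the relative of *Elmo1*, was at 0.873, in the other direction from *Elmo1*.

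Of 14 genes of phagosome maturation and cargo handling, 7 were lower and 7 higher, with a median ratio of 0.998. *Rab7a*, the GTPase of late phagosomes, was at 1.26 and the lysosomal protease *Ctsd* at 0.870. *Nr1h3*, a nuclear receptor that senses sterols, was at 0.873 and its partner *Rxra* at 0.829. Of 8 genes for carboxylation of the TAM ligands, receptor shedding and feedback, 5 were lower and 3 higher. *Socs1*, which TAM signalling induces, was at 0.813 and *Socs3* at 1.12. *Ptpn11*, a phosphatase of receptor signalling, was at 0.898 and *Adam17*, the protease that sheds Mertk, at 1.10.

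Markers of the tissue were read beside the members. Of 9 measured LEC markers, 6 were higher in Cat+ and 3 lower. By more than the probe-set SD, 3 were higher and 1 was lower. That one, *Itga6*, had the widest difference of the list, from 7.52 down to 7.26 on the log2 scale, a ratio of 0.838. *Foxe3*, the transcription factor of the lens epithelium, had the largest rise, from 9.53 up to 9.72, a ratio of 1.14. The signals of the 9 LEC markers, summed on the linear scale, were 15173 in Cat- and 15939 in Cat+. Such a sum, here and below, is weighted towards the probe sets with the highest signal and is not a measure of cell content. The 10 measured lens fiber markers were all lower in Cat+, with a median ratio of 0.387 and summed signals of 16658 and 6952. This is the direction of *Mfge8* and *Gas6*. Several of them, among these *Lgsn*, *Mip*, *Dnase2b* and *Bfsp1*, were reported by the study as under 0.5 in these same arrays. The low median of the fiber list was therefore in part fixed by the choice of its genes. Of 8 markers of the retinal pigment epithelium, 6 were lower and 2 higher, with a median ratio of 0.987 and summed signals of 1160 and 948. *Best1*, *Lrat* and *Rdh5* were between 0.979 and 0.999. *Rgr*, an opsin of that epithelium, was at 0.683, *Ttr*, transthyretin, at 0.700, *Rpe65* at 0.838 and *Rlbp1* at 1.09. *Ttr* and *Rgr* have the highest signals of this list and weigh most in its sum. The part of these markers in the lower signals of *Mfge8* and *Gas6* was not tested.

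The 16 macrophage and leukocyte markers were all higher in Cat+, with a median log2 difference of 0.32 and summed signals of 1817 and 2471. By more than the probe-set SD, 12 of them were higher. *Cd68* was at 1.90 and *Lyz2*, lysozyme, at 1.64, whereas *Aif1* was at 1.02 and *Tyrobp* at 1.11. The defining markers *Cd163* and *Itgam*, each with a log2 signal of 5.19 in Cat-, lay below the chemosensory gauge in both samples, and *Ptprc*, the pan-leukocyte CD45, was at 5.68 and 5.92. These markers moved in the same direction as *Elmo1*, *Dock1*, *Rac2* and *Msr1*. The macrophage scavenger receptor *Marco*, at 0.781, and *Lgals3*, at 0.534, moved the other way. The part of the markers in those differences was not tested. Of 9 photoreceptor markers, 7 were higher and 2 lower, with a median ratio of 1.28 and summed signals of 1905 and 2517. *Gnat1*, the rod transducin, had log2 signals of 9.35 and 9.95, a ratio of 1.51. *Sag* had 8.98 and 9.43, a ratio of 1.37, and *Pde6b* and *Pde6a* were both at 1.34. The 2 lower were *Opn1sw*, a cone opsin, at 0.751 and *Crx*, a photoreceptor transcription factor, at 0.817. The part of these markers in the ratio of *Tulp1* was not tested. All 6 pigment cell markers were higher, with *Tyr* at 1.20. Endothelial markers, 4 lower and 5 higher of 9, had a median ratio of 1.02, with *Emcn* at 0.822. Of 4 erythroid and platelet markers, 3 were lower and 1 higher, with *Ppbp* at 0.915 and *Gp9* at 1.05, and *Itga2b* lay below the chemosensory gauge in both samples. Of 7 stromal markers, 3 were lower and 4 higher, with a median ratio of 1.05, *Col1a2* at 0.937 and *Lum*, lumican, at 1.41, and the 3 corneal markers lay between 0.975 and 1.03. *Lss* itself had log2 signals of 6.46 and 6.50.

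**Figure D4:**
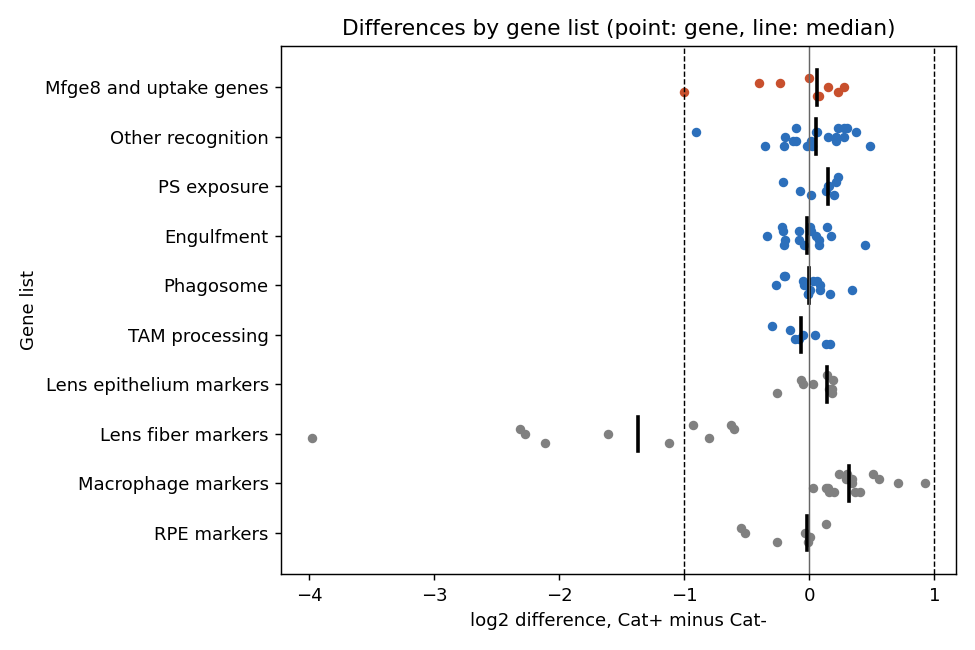
Log2 difference Cat+ minus Cat- for each measured gene of the members, of the 5 lists of their partners (PS, phosphatidylserine) and of 4 marker lists (RPE, retinal pigment epithelium), with a black line at each median and dashed lines at ratios of 0.5 and 2. The fiber markers have a median of -1.37 and the macrophage markers one of 0.32, while the members and their partner lists have medians between -0.06 and 0.15.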

How the data were processed

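The authors hybridised RNA of LECs, labelled with the GeneChip WT Pico kit, to the GeneChip Rat Gene 2.0 ST array, normalized each array by a specific control or by its average intensity, and deposited the resulting log2 signal of 29870 probe sets. The log2 scale was read from the range of the values. For background correction, probe summarization and genome build, the method is not given in the sources used here. The arrays had medians of 5.67 in Cat- and 5.69 in Cat+, and with 1 array per condition their number limits the precision.

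Probe sets were named from the platform annotation, where 18511 name 1 gene, 575 several and 10784 none. A gene with several probe sets took the brighter. The difference Cat+ minus Cat- was computed with no further normalization, filter or test. The members and gene lists were chosen with earlier results of these data known. The genes named are the members, up to 4 genes per list with the widest differences, *Itgb5* and *Lss*; the rule also named the 3 genes nearest to *Mfge8* in signal, left out because levels of different probes are not comparable. *Best1*, *Lrat*, *Rdh5*, *Opn1sw*, *Crx*, *Timd4*, *Havcr1*, *Olr1*, *Cd300lf*, *Edil3*, *Elmo2*, *Rac1*, *Dner*, *Pnkd*, *Prkca*, *Ptprc*, *Cd163*, *Itgam*, *Aif1* and *Tyrobp* were named after their values were seen. Alternatives were median centring, quantile normalization, loess (span 0.3), filters on dim genes, a floor, other choices of probe set and smaller size thresholds. The size rule was also run on simulated data with genes lowered by more than *Mfge8* was, so that check does not bear on a gene at the edge of the rule. Computation was in Python 3.11.15 with pandas 2.3.3 and NumPy 2.4.6, the loess fit used statsmodels 0.14.6, and plots matplotlib 3.10.9.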

Additional observations from a re-analysis of the deposited data

How the results depend on the processing

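The 10 alternative settings gave 140 values. Of these, 91 equalled the main value, many by construction, since every member and partner has 1 probe set and filters or the floor leave a bright gene's own difference as it was. Of the 49 that differed, 47 stayed within the SD between probe sets of a gene or, for counts, within 1.5 times the main count. The number of members with a ratio under 0.5 was 1, but 0 under quantile normalization, where *Mfge8* had a log2 difference of -0.98, and 2 where the threshold was a ratio of 0.8, which *Gas6* also passed. The difference of *Mfge8* ran from -1.01 to -0.98 and that of *Gas6* from -0.41 to -0.38 over the settings. *Gulp1* lay from -0.0075 to 0.030, so its sign changed with the scaling, and 4 members instead of 3 were lower under median centring and loess. No paired analysis was possible because each group has 1 sample, and no replicate could be left out. No detection calls are in the deposited table, which limits what can be said of *Tyro3*.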
